A study of Mus musculus with 4 samples.

Results

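Cells of the connecting tubule, the short stretch of nephron between the distal convoluted tubule and the collecting duct, were sought in droplet RNA sequencing data from dissociated kidney cells of 4 mice. All 4 mice were wild type and carried the label CIAKI, for acute kidney injury induced by contrast, a model in which an imaging contrast agent damages the kidney; the labels used here do not give the agent, its dose, the time after it, or the strain, sex or age of the mice. The series analysed here held 1 group and 1 labelled batch, with no uninjured kidney, so no value below measures an effect of the injury. Fresh kidney was dissociated and run on the 10x Genomics droplet platform, 1 library per mouse, and each unique molecular identifier (UMI) stands for 1 captured transcript.

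Members were selected on their own UMI counts of 11 genes. A cell was a member if it held at least 500 UMIs, at least 300 genes and under 50% mitochondrial UMIs, at least 1 UMI of Calb1, and at least 1 UMI of any of Scnn1b, Scnn1g, Slc8a1 and Trpv5. It also had no UMI of Slc12a3, Ptprc or Pecam1, and under 10 UMIs per 10000 of each of Aqp2, Umod and Gpx3. Of 40939 cells that passed the quality limits, 156 met the rule. Mice 1 to 4 gave 18, 16, 37 and 85 members, which were 0.254%, 0.181%, 0.287% and 0.703% of their cells. The exact 95% intervals, which cover counting error only, ran between 0.151% and 0.401% in mouse 1, 0.103% and 0.293% in mouse 2, 0.202% and 0.395% in mouse 3, and 0.562% and 0.868% in mouse 4. Over mice the share was 0.356% ± 0.235 (SD, n = 4), 0.240% without mouse 4, and 0.141% at a stricter rule of at least 2 Calb1 UMIs and 2 partner genes, which left 6, 1, 23 and 35 cells in mice 1 to 4. These shares are shares of the cells recovered after dissociation. They also depend on depth, because the rule asks for UMIs of at least 2 genes. When every cell was thinned to 1000 UMIs and the rule was applied again, the mean share was 0.0830%. At that depth a single UMI of Aqp2, Umod or Gpx3 reaches 10 per 10000, so these exclusions were stricter as well.

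As background, the connecting tubule reabsorbs calcium under parathyroid hormone and vitamin D. Calcium enters through the apical channel TRPV5, is carried across the cell by the calbindins (calbindin-D28k, encoded by Calb1, and calbindin-D9k, encoded by S100g), and leaves through the exchanger NCX1 (Slc8a1) and plasma membrane calcium pumps. The same segment takes up sodium through the epithelial sodium channel ENaC (Scnn1a, Scnn1b and Scnn1g) under aldosterone, and secretes potassium. Intercalated cells, which move acid and base, lie between its calcium-transporting cells. The distal convoluted tubule upstream also holds Calb1 and Slc8a1, and the collecting duct principal cells downstream hold ENaC and the vasopressin-regulated channel aquaporin 2 (Aqp2).

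The label held for only some of the members. Calb1 was thinly sampled: 67 of the 156 cells had a single Calb1 UMI, 65 had 2 to 9, and 24 had 10 or more. Those 24 cells held 70.8% of all Calb1 UMIs among the members, and mice 1 to 4 contributed 8, 1, 7 and 8 of them. Of the other rule genes, Slc8a1 was detected in 121 members, Scnn1b in 102, Scnn1g in 77 and Trpv5 in 47. All 3 defining markers, Calb1, Slc8a1 and Scnn1g, were detected together in 63 members. In 34 members Slc8a1 was the only one of the 4 partner genes found.

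Markers of unrelated cell types were also present. A total of 41 members (26.3%) carried at least 3 markers of another type, together at 10 or more UMIs per 10000, a criterion chosen after the values were seen. Intercalated cell markers accounted for 22 of these cells, macrophage markers for 7, fibroblast and mural cell markers for 7, proximal tubule, endothelial and lymphocyte markers for 2 each, and thick ascending limb and podocyte markers for 1 each. A cell could meet the criterion for more than 1 type. Of the 41, 29 had a single Calb1 UMI and none had 10 or more. The 41 came from mice 1 to 4 as 7, 8, 5 and 21 cells, leaving 115 members (11, 8, 32 and 64), a mean share of 0.256%. Because of this mixture the members are called Calb1-gated cells below, and levels are given with and without the 41 for the genes most affected.

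**Figure D1:**
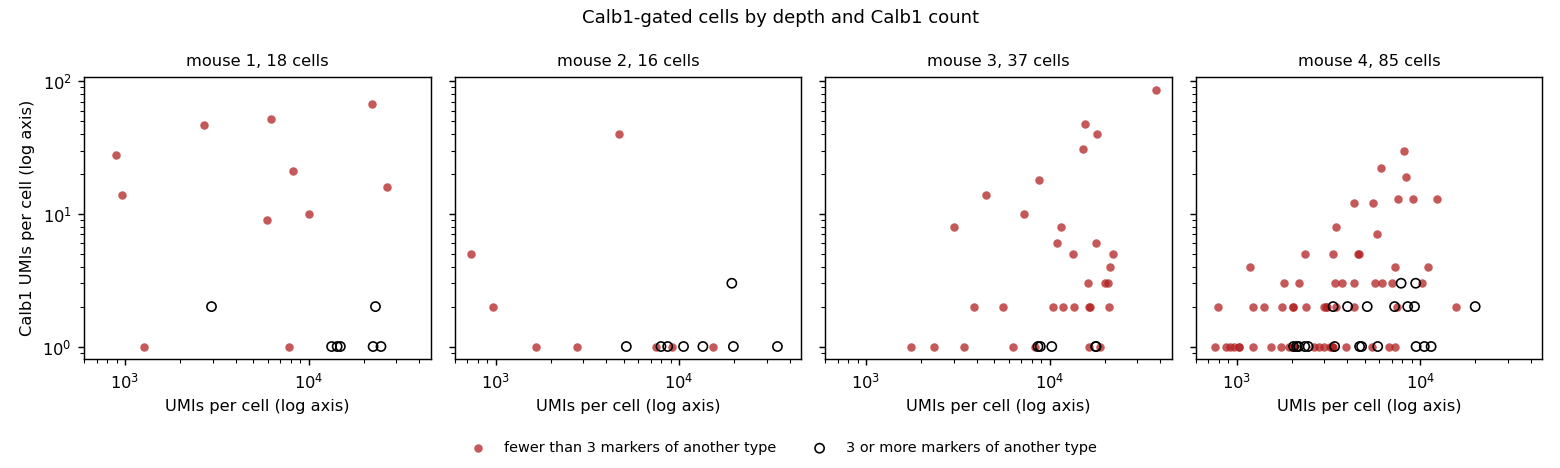
Each point is 1 of the 156 Calb1-gated cells, by its UMIs (x axis, log scale) and its Calb1 UMIs (y axis, log scale), with 1 panel per mouse. Filled points carry fewer than 3 markers of an unrelated type and open circles carry 3 or more; the 41 open circles lie at 1 to 3 Calb1 UMIs, and the 24 cells with 10 or more Calb1 UMIs are all filled.

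Leukocytes gave a background for the rule; free transcripts, doublets and their own expression cannot be told apart in it. Among 15590 cells with a UMI of Ptprc, the pan-leukocyte gene, 3.20%, 1.57%, 1.01% and 2.45% in mice 1 to 4 had a Calb1 UMI. Both Calb1 and a partner gene were found in 1.59%, 0.477%, 0.654% and 1.58% of them. Slc8a1 alone was found in 17.1% to 35.6% of these leukocytes, at median depths of 2065 to 6798 UMIs. The Calb1-gated cells were deeper than the average cell of their library, with medians of 9128, 8310, 13436 and 3420 UMIs in mice 1 to 4, against 5549, 5815, 5655 and 2077 UMIs over all cells. Mouse 4 had the shallowest cells. Ribosomal protein genes took a median of 6.54% of UMIs in its Calb1-gated cells, against 1.61% to 1.82% in those of the other mice.

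The cells next to the limits were as follows. Of cells that met every other condition, 1911 had no Calb1 UMI and 93 had Calb1 but no partner gene. A single Slc12a3 UMI kept out 10 cells and 2 or more kept out 67. Aqp2 at 10 to 20 per 10000 kept out 59 cells, and at 20 or more 289. Inside, 85 members had no Aqp2 UMI, 33 had under 5 per 10000 and 38 had 5 to 10. In mouse 4 Aqp2 kept out 308 cells and Slc12a3 23, while over mice 1 to 3 the order was the opposite, with 40 kept out by Aqp2 and 54 by Slc12a3.

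For comparison, the neighbouring segments were cut by like rules. Slc12a3-gated cells, for the distal convoluted tubule, had 2 or more UMIs of Slc12a3 (the thiazide-sensitive sodium chloride cotransporter) and passed the other exclusions; there were 154 (45, 35, 26 and 48 in mice 1 to 4). Aqp2-gated cells, for principal cells, had Aqp2 at 10 or more per 10000 and at least 2 UMIs, with Aqp3, Scnn1b or Scnn1g; there were 570 (32, 6, 38 and 494). Levels below are UMIs summed over a class in a mouse, in CPM, the counts scaled to 1000000 UMIs of that sum. Mouse 2 gave too few Aqp2-gated cells (6, under the minimum of 10), so all comparisons with that class use mice 1, 3 and 4.

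Calb1, which chose the members, averaged 775 ± 392 CPM in the Calb1-gated cells (SD, n = 4), against 2626 ± 630 CPM in Slc12a3-gated cells (n = 4) and 417 ± 297 CPM in Aqp2-gated cells (n = 3). By mouse it stood at 1318, 383, 672 and 727 CPM in Calb1-gated cells and at 2712, 1712, 3093 and 2987 CPM in Slc12a3-gated cells. In every mouse the Slc12a3-gated cells held more Calb1 than the cells chosen for it. Without the 41 cells with other markers, Calb1 was 2866, 1216, 762 and 981 CPM in mice 1 to 4, so the order held in 3 of 4 mice and not in mouse 1. Slc8a1 averaged 727 ± 215 CPM in Calb1-gated cells, against 2134 ± 2600 CPM in Slc12a3-gated cells and 255 ± 103 CPM in Aqp2-gated cells. The Slc12a3-gated mean of Slc8a1 rested on mouse 1, at 5989 CPM, while mice 3 and 4 had 566 and 576 CPM. Calb1-gated cells had 1021, 525, 738 and 623 CPM of Slc8a1 in mice 1 to 4, lower than Slc12a3-gated cells in mice 1 and 2 and higher in mice 3 and 4.

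The sodium channel subunits ran the other way. Scnn1g, the gamma subunit of ENaC, averaged 212 ± 116 CPM in Calb1-gated cells, against 13.8 ± 5.52 CPM in Slc12a3-gated cells and 287 ± 97.6 CPM in Aqp2-gated cells. Scnn1b, the beta subunit, averaged 288 ± 77.9 CPM in Calb1-gated cells, against 62.5 ± 29.9 CPM in Slc12a3-gated cells and 422 ± 53.0 CPM in Aqp2-gated cells. Trpv5, the calcium entry channel, stood at 67.1, 49.4, 188 and 69.8 CPM in the Calb1-gated cells of mice 1 to 4, against 22.6, 15.4, 68.1 and 0 CPM in Slc12a3-gated cells. Aqp2-gated cells had 29.8, 92.6 and 27.8 CPM of Trpv5 in mice 1, 3 and 4. All of these genes belong to the rules, so these levels are a description and were not tested. The means of Calb1, Scnn1b and Scnn1g in Calb1-gated cells all lay between those of the neighbouring classes, and Trpv5 was highest in Calb1-gated cells in every mouse compared.

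**Figure D2:**
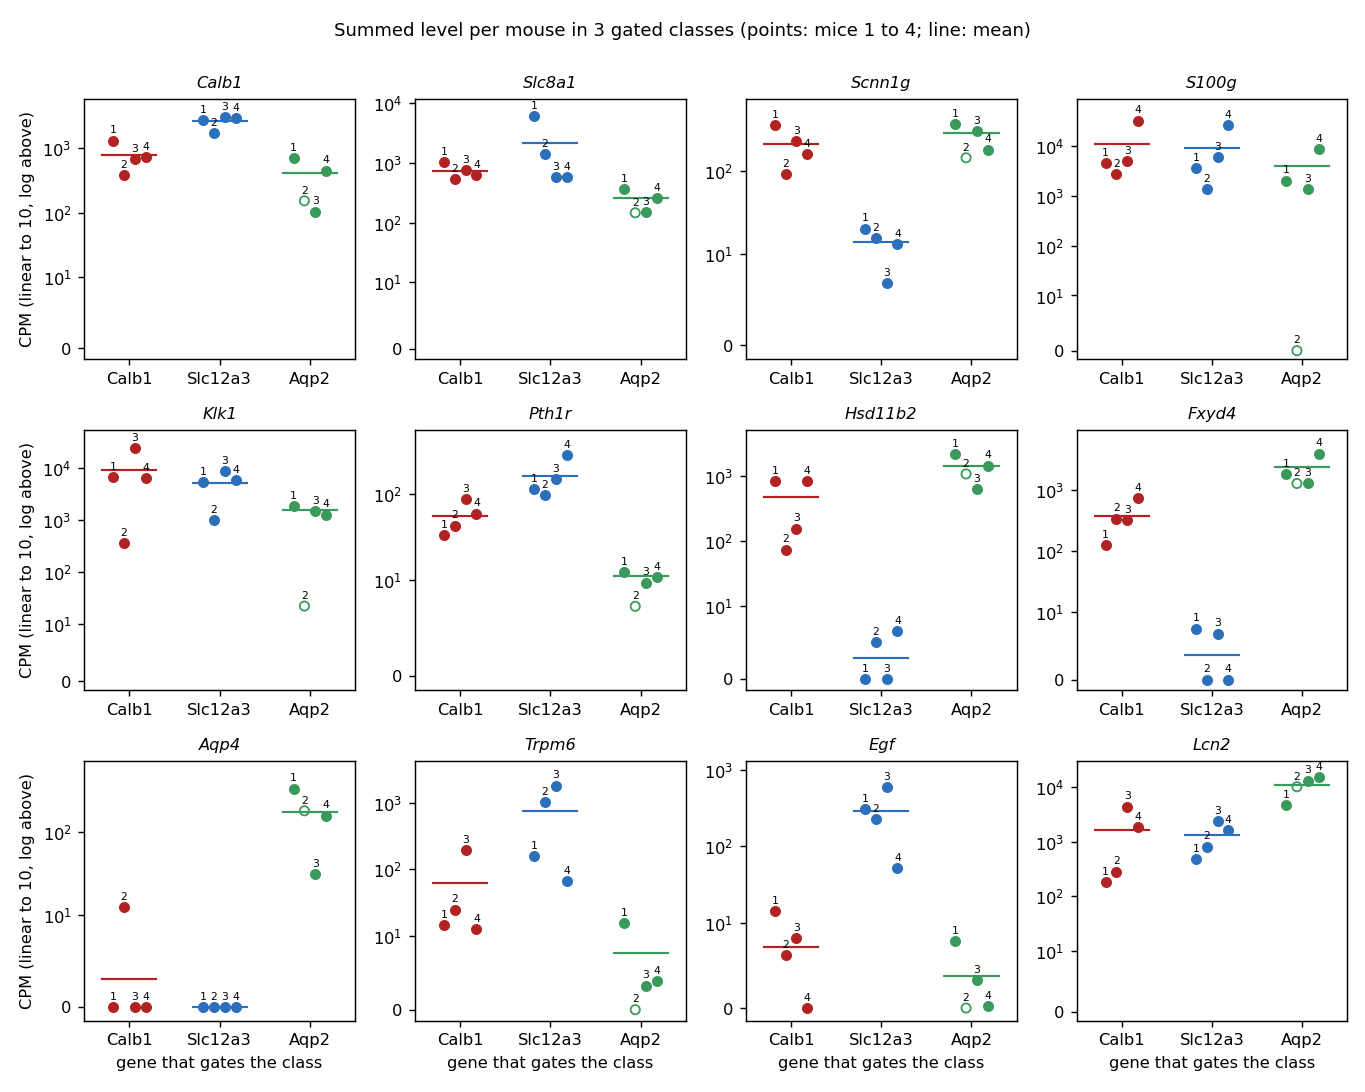
Summed level per mouse of 12 genes in Calb1-gated (red), Slc12a3-gated (blue) and Aqp2-gated cells (green), in CPM on an axis that is linear to 10 and logarithmic above; each point is 1 mouse, numbered, and the line is the mean. The open point is mouse 2 with 6 Aqp2-gated cells, which is left out of the mean; Hsd11b2 and Fxyd4 are near 0 in the blue class, and Trpm6 and Egf are lower in the red class than in the blue one in every mouse.

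The 2 most abundant genes of the calcium and magnesium list outside the rule were S100g (ENSMUSG00000040808), which encodes calbindin-D9k, and Klk1 (ENSMUSG00000063903), which encodes tissue kallikrein, a serine protease that the connecting tubule is known for releasing into the urine. After ribosomal RNA fragments, Malat1 and the secreted phosphoprotein gene Spp1, they had ranks 4 and 5 among all genes outside the mitochondrial and ribosomal protein genes, at 11361 and 9372 CPM on average. Of the 7 genes of that list called higher than in Aqp2-gated cells, 6 matched a RefSeq promoter, and the promoters of S100g and Klk1 are shown because those 2 of the 6 held the motif searched. The sequences are the 250 bases before each start in RefSeq (GRCm38.p6), at chrX:162964600-162964849 on the minus strand for S100g and chr7:44225110-44225359 on the plus strand for Klk1. Capitals mark AGGTCA on either strand, the core half-site that nuclear receptors such as the vitamin D receptor can bind.
S100g: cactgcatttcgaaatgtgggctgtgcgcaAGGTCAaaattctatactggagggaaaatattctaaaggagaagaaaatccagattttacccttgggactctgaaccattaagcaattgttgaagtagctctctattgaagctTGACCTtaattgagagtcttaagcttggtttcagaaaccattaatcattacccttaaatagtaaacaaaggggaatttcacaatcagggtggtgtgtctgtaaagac
Klk1: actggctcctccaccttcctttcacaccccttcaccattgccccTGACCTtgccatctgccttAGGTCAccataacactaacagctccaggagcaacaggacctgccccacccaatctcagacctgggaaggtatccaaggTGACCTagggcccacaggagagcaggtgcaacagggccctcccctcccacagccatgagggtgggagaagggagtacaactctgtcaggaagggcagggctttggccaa
The S100g window held 2 matches, starting 220 and 107 bases before the gene start, and the Klk1 window held 3, starting 206, 187 and 109 bases before it. Of 32851 promoter windows of this length, 14.02% held AGGTCA on either strand and 1.358% held 2 or more. A match says only that these letters are present.

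S100g stood at 4621, 2810, 5004 and 33007 CPM in the Calb1-gated cells of mice 1 to 4, against 3641, 1379, 6146 and 26551 CPM in Slc12a3-gated cells. Aqp2-gated cells had 2046, 1363 and 8840 CPM in mice 1, 3 and 4. Mouse 4 was far above the others in all 3 classes, and leukocytes of mouse 4 also had the most S100g, at 786 CPM against 32.7 to 81.6 CPM in the other mice. S100g was 3.09-fold higher in Calb1-gated than in Aqp2-gated cells (log2 fold change 1.63 ± 0.29 SE, adjusted p = 0.0161, higher in 3 of 3 mice). Against Slc12a3-gated cells the log2 fold change was 0.18 ± 0.31 (adjusted p = 0.777), with 3 mice higher and 1 lower. These and all later adjusted p-values come from edgeR's quasi-likelihood test on the summed counts with mouse as a block, with Benjamini-Hochberg adjustment over all genes tested. The call against Aqp2-gated cells was lost without mouse 3 (adjusted p = 0.0946) and without mouse 4 (adjusted p = 0.203).

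Within the class S100g was uneven. Per cell it ran between 0 and 2652 UMIs per 10000 in mouse 4, with a median of 240, and between 0 and 449 in mouse 1, with a median of 30.1. It was detected in 127 of 156 cells: in 46 of the 67 with 1 Calb1 UMI, in 59 of the 65 with 2 to 9 and in 22 of the 24 with 10 or more. Among the 41 cells with markers of other types, 27 held S100g. By mouse the detected share in Calb1-gated cells was 56.3% to 91.8%, against 4.49% to 20.1% in leukocytes; at 1000 UMIs per cell the ranges were 28.6% to 90.0% in Calb1-gated cells and 1.00% to 11.5% in leukocytes. The ranges in Calb1-gated cells and leukocytes did not overlap at either depth.

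Klk1 stood at 6764, 352, 24030 and 6343 CPM in the Calb1-gated cells of mice 1 to 4, against 5281, 1005, 8823 and 5955 CPM in Slc12a3-gated cells. In Aqp2-gated cells it was 1852, 1480 and 1265 CPM in mice 1, 3 and 4. A single cell of mouse 3 held 3024 Klk1 UMIs, 19.3% of all Klk1 UMIs in the class, and 12 of the 16 cells of mouse 2 held none. Klk1 was 6.46-fold higher in Calb1-gated than in Aqp2-gated cells (log2 fold change 2.69 ± 0.43 SE, adjusted p = 0.00997, 3 of 3 mice; adjusted p = 0.144 without mouse 4). Against Slc12a3-gated cells it was -0.03 ± 0.42 (adjusted p = 0.988), and its sign turned under several settings. It was detected in 34 of 67, 50 of 65 and 22 of 24 cells with 1, 2 to 9 and 10 or more Calb1 UMIs. By mouse it was found in 25.0% to 83.3% of Calb1-gated cells, against 9.32% to 27.2% of leukocytes, and at 1000 UMIs per cell in 7.14% to 62.5%, against 2.38% to 9.09%. Unlike those of S100g, these ranges overlapped at both depths.

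The comparison with Aqp2-gated cells asked what separates the connecting tubule from principal cells. Of 7221 genes tested, 338 (4.68%) were called at an adjusted p under 0.05, 173 higher (2.4%) and 165 lower (2.29%) in Calb1-gated cells. Genes that travel with the rule genes are set apart by the rules themselves, so the calls describe what the rules divide. The count rested on mouse 4, which gave 494 of the Aqp2-gated cells: without it 17 genes were called, without mouse 3 641, and with no term for mouse 0 by edgeR's quasi-likelihood test (305 genes had an unadjusted p under 0.05 in that fit, and 1457 with the term). DESeq2 with the term called 263. The comparisons with Aqp2-gated and with Slc12a3-gated cells use the same Calb1-gated sums and so are not independent of each other. Of the listed calcium and magnesium genes, 13 of 18 outside the rule passed the filter on low counts, and 7 were higher and none lower, with a median log2 fold change of 1.63, against -0.05 over all genes tested.

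Beside S100g and Klk1, the 7 comprised Pth1r, Vdr, Atp2b4, Kl and Fxyd2. Pth1r, the receptor for parathyroid hormone, stood at 33.6, 88.7 and 59.8 CPM in the Calb1-gated cells of mice 1, 3 and 4, against 12.5, 9.75 and 11.0 CPM in Aqp2-gated cells, a 5.20-fold difference (adjusted p = 0.00968). Vdr, the vitamin D receptor, stood at 206, 74.3 and 74.7 CPM in Calb1-gated cells, against 45.4, 29.2 and 25.6 CPM in Aqp2-gated cells, 3.18-fold (adjusted p = 0.0106). The groups did not overlap for either gene. Pth1r passed the filter on low counts through the Calb1-gated class alone. Only a higher level of Pth1r could thus be called, and its lack of overlap follows from the filter.

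Atp2b4, a plasma membrane calcium pump, was 5.36-fold higher in Calb1-gated cells, on 95.9, 26.8 and 44.8 CPM against 25.0, 6.50 and 4.87 CPM in Aqp2-gated cells (adjusted p = 0.00968). Like Pth1r, Atp2b4 passed the filter on low counts through the Calb1-gated class alone. Kl, which encodes klotho, a co-receptor for FGF23, was 3.15-fold higher, on 398, 248 and 110 CPM in Calb1-gated cells against 98.6, 73.1 and 45.3 CPM in Aqp2-gated cells (adjusted p = 0.00721). Fxyd2, the gamma subunit of the sodium pump, stood at 1050, 736 and 3079 CPM in Calb1-gated cells, against 620, 19.5 and 403 CPM in Aqp2-gated cells (6.36-fold, adjusted p = 0.0380). DESeq2 did not call Fxyd2 (adjusted p = 0.114), and its log2 fold change was 3.67 without mouse 1 and 1.82 without mouse 3. All 5 of these calls were lost without mouse 4, with adjusted p between 0.0641 (Kl) and 0.353 (Fxyd2), while each fold change kept its direction. The share of UMIs from cells with other-type markers was 8.37% for Kl, 12.4% for Pth1r, 27.0% for Vdr, 30.8% for Fxyd2 and 39.3% for Atp2b4. The 41 cells held a median of 36.4% of the UMIs of a tested gene. Trpv6, an apical calcium channel related to Trpv5, had a log2 fold change of -1.45 ± 0.49 (adjusted p = 0.139), which was -2.86 without mouse 3 (adjusted p = 0.00391).

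The comparison with Slc12a3-gated cells asked what separates the connecting tubule from the distal convoluted tubule. Of 3499 genes tested in 4 mice, 125 (3.57%) were called, 61 higher (1.74%) and 64 lower (1.83%) in Calb1-gated cells. Without the term for mouse 23 were called, without mouse 1 58, and without mouse 2 63. Of 12 calcium and magnesium genes tested, none was higher and 6 were lower, with a median log2 fold change of -1.18, against 0.01 over all genes tested; DESeq2 called 6 of the 12. These 6 were mostly genes of magnesium transport, which is the task of the distal convoluted tubule.

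Trpm6, the magnesium channel of that segment, stood at 14.4, 24.7, 194 and 12.5 CPM in the Calb1-gated cells of mice 1 to 4, against 158, 1010, 1799 and 65.5 CPM in Slc12a3-gated cells. The difference was -3.73 ± 0.46 on the log2 scale (adjusted p = 0.00130, lower in 4 of 4 mice); of the Trpm6 UMIs in Calb1-gated cells, a single cell of mouse 3 held 32.1%. Egf, whose product stimulates Trpm6, stood at 14.4, 6.18, 8.25 and 0 CPM in Calb1-gated cells, against 304, 226, 586 and 52.4 CPM in Slc12a3-gated cells (log2 fold change -5.59 ± 0.44, adjusted p = 1.597e-04). Egf was represented by 8 UMIs in all Calb1-gated cells. Both Egf and Trpm6 passed the filter on low counts through the Slc12a3-gated class alone. For Egf the groups did not overlap; for Trpm6 they overlapped over mice, although each mouse was lower in its own Calb1-gated cells.

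Cnnm2, a basolateral magnesium regulator, was 6.47-fold lower in Calb1-gated cells (adjusted p = 6.891e-04) and Trpm7, a kinase-channel that conducts magnesium, 4.58-fold lower (adjusted p = 0.0157). Fxyd2, mutations of which cause renal magnesium wasting in humans, was 2.67-fold lower (adjusted p = 0.0166), on 1050, 698, 736 and 3079 CPM in Calb1-gated cells against 2099, 2122, 1935 and 6400 CPM in Slc12a3-gated cells. Pth1r was 3.14-fold lower (adjusted p = 0.0178), on 33.6, 43.2, 88.7 and 59.8 CPM in Calb1-gated cells against 116, 97.4, 150 and 288 CPM in Slc12a3-gated cells. Each of these 4 was lower in every mouse. Fxyd2 and Pth1r were thus called lower than in Slc12a3-gated cells and higher than in Aqp2-gated cells. In each comparison Pth1r passed the filter on low counts through the class with the higher level alone. The calls for Trpm7, Pth1r and Fxyd2 were lost when mouse 1 was left out (adjusted p = 0.0708, 0.0722 and 0.101), those for Trpm7 and Pth1r without mouse 2 (0.0658 and 0.0708), that for Fxyd2 without mouse 3 (0.0697), and those for Fxyd2 and Pth1r without mouse 4 (0.0721 and 0.112). Those for Trpm6, Egf and Cnnm2 held each time 1 mouse was left out and the gene could be tested. Vdr (-0.36 ± 0.35, adjusted p = 0.609) and Kl (-0.93 ± 0.46, adjusted p = 0.279) did not pass.

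Sodium transport genes under aldosterone were divided. Hsd11b2, the enzyme that inactivates glucocorticoid and so leaves the mineralocorticoid receptor to aldosterone, stood at 829, 74.1, 155 and 830 CPM in the Calb1-gated cells of mice 1 to 4, against 0, 5.13, 0 and 6.55 CPM in Slc12a3-gated cells. In mouse 1 a single cell gave 68.8% of the Hsd11b2 UMIs of the Calb1-gated cells, and 6 of the 18 held any. Slc12a3-gated cells held 2 Hsd11b2 UMIs in all, a pooled ratio of 211 with a counting interval of 58.1 to 1743 (adjusted p = 3.008e-04, higher in 4 of 4 mice). In this comparison Hsd11b2 passed the filter on low counts through the Calb1-gated class alone, so only a higher level could be called. In Aqp2-gated cells Hsd11b2 stood at 2109, 629 and 1420 CPM in mice 1, 3 and 4, so the Calb1-gated level was 2.60-fold lower than that (adjusted p = 0.0155; 0.135 without mouse 4). Hsd11b2 was detected in 83 of 156 Calb1-gated cells, in 25.0% to 62.2% by mouse, against 0.497% to 3.16% of leukocytes.

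Fxyd4, a regulator of the sodium pump in the collecting duct, had the same order. It stood at 125, 340, 320 and 735 CPM in Calb1-gated cells, against 7.53, 0, 6.81 and 0 CPM in Slc12a3-gated cells (log2 fold change 5.78 ± 0.64, adjusted p = 6.891e-04). Aqp2-gated cells had 1808, 1302 and 3949 CPM in mice 1, 3 and 4, and the Calb1-gated level was 6.54-fold lower (adjusted p = 0.00273; 0.0846 without mouse 4). In mouse 2 a single cell gave 92.7% of the Fxyd4 UMIs. Against Slc12a3-gated cells Fxyd4, like Hsd11b2, passed the filter on low counts through the Calb1-gated class alone. Hsd11b2 and Fxyd4 passed the test in both comparisons, with levels in Calb1-gated cells above the Slc12a3-gated and below the Aqp2-gated class in every mouse compared.

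Of the whole sodium and potassium list, 19 of 24 genes were tested against Slc12a3-gated cells, and 15.8% were called, against 3.57% of all genes tested: Hsd11b2 and Fxyd4 were higher and Wnk1, a kinase that controls the thiazide-sensitive cotransporter, was lower (4.15-fold, adjusted p = 0.0109; lost without mouse 1, 0.0630, and without mouse 4, 0.0759). The list's median log2 fold change was -0.58. Scnn1a, the alpha subunit of ENaC and not part of the rule, stood at 254, 130, 165 and 162 CPM in Calb1-gated cells, against 239, 215, 170 and 157 CPM in Slc12a3-gated cells (log2 fold change -0.31 ± 0.28, adjusted p = 0.570). Nr3c2, the mineralocorticoid receptor, was 0.69 ± 0.32 (adjusted p = 0.260). Sgk1, an aldosterone-induced kinase, was higher in each of the 4 mice at 1.64 ± 0.42 but missed the threshold (adjusted p = 0.0545; 0.0232 without mouse 3). Klhl3, the adaptor that directs WNK kinases to degradation, was -2.07 ± 0.53 (adjusted p = 0.0556); DESeq2 called it (adjusted p = 0.0352), as did edgeR without mouse 3 (adjusted p = 0.00517).

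Against Aqp2-gated cells, 23 genes of that list were tested, and 2 were higher and 3 lower (21.7% called, against 4.68% of all genes tested). Sgk1 stood at 81.5, 92.8 and 130 CPM in Calb1-gated cells of mice 1, 3 and 4, against 417, 234 and 236 CPM in Aqp2-gated cells (2.78-fold lower, adjusted p = 0.0161; 0.125 without mouse 4). Klhl3 was 3.01-fold higher (adjusted p = 0.0358) and Zbtb16, a glucocorticoid- and mineralocorticoid-responsive transcription factor, 2.29-fold higher (adjusted p = 0.0380). Klhl3 and Zbtb16 lost their calls without mouse 1 (adjusted p = 0.128 and 0.0878) and without mouse 4 (0.176 and 0.275), and DESeq2 called neither (0.0917 and 0.121). Scnn1a (-0.38 ± 0.20, adjusted p = 0.326) and Nr3c2 (0.21 ± 0.28, adjusted p = 0.723) did not pass, and the list's median was 0.06.

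**Figure D3:**
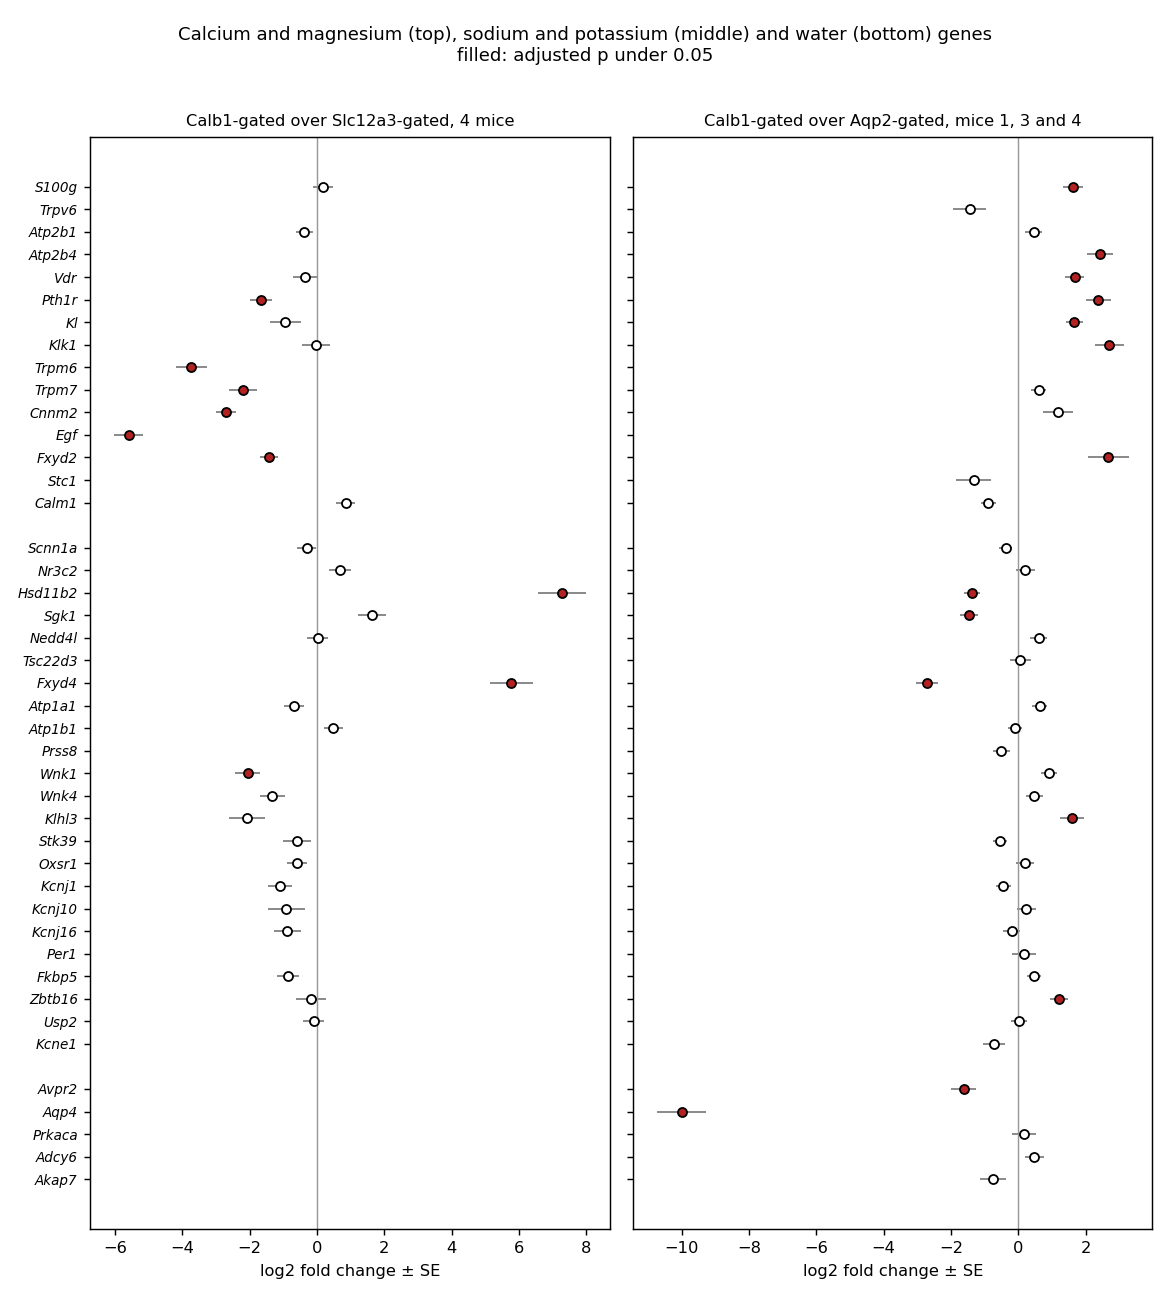
Log2 fold change ± SE of Calb1-gated over Slc12a3-gated cells (left, 4 mice) and over Aqp2-gated cells (right, mice 1, 3 and 4) for listed genes of calcium and magnesium, sodium and potassium, and water transport; filled points have an adjusted p under 0.05. The 6 called calcium and magnesium genes lie left of 0 against Slc12a3-gated cells and the 7 called lie right of 0 against Aqp2-gated cells; the positions of Aqp4 (no UMI in the Calb1-gated cells of those mice) and of Hsd11b2 on the left (2 UMIs in Slc12a3-gated cells) depend on the model.

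Of 5 water transport and vasopressin genes tested against Aqp2-gated cells, 2 were lower and none was higher, against 2.29% lower over all genes tested. Aqp4, the basolateral water channel of principal cells, had no UMI in the Calb1-gated cells of mice 1, 3 and 4, against 337, 30.9 and 159 CPM in Aqp2-gated cells. With a floor of 3 UMIs over those mice it was at least 60.5-fold lower (adjusted p = 0.00115, lower in 3 of 3 mice, also without mouse 4). A single cell of mouse 2 held the 2 Aqp4 UMIs found in Calb1-gated cells. Aqp4 passed the filter on low counts through the Aqp2-gated class alone. Avpr2, the vasopressin receptor, was 3.09-fold lower (adjusted p = 0.0363; 0.177 without mouse 1, 0.335 without mouse 4 and 0.127 with DESeq2), on 24.0, 4.13 and 32.4 CPM in Calb1-gated cells against 119, 4.87 and 80.2 CPM in Aqp2-gated cells. Slc14a2, the urea transporter of the inner medullary collecting duct, had 2 UMIs in Calb1-gated cells of those mice and 838 in Aqp2-gated cells, a pooled ratio of 0.0117 with a counting interval of 0.00141 to 0.0423 (adjusted p = 4.178e-04). Like Aqp4, Slc14a2 passed the filter on low counts through the Aqp2-gated class alone, so only a lower level could be called. Other genes among the 8 most reduced were Aldoc, a glycolytic aldolase (27.4-fold lower), Wnt4, a secreted signal (9.19-fold), Muc20, a membrane mucin (9.01-fold), Mcoln3, a cation channel of endosomes (8.05-fold), and Anxa1, an annexin (7.80-fold), of which each call was lost without mouse 4.

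Of 27 listed transcription factors of segment identity, 17 were tested against Slc12a3-gated cells, and 2 (11.8%) were called, both higher, against 3.57% of all genes tested. Ehf, an epithelial ETS factor, was 7.20-fold higher (adjusted p = 8.319e-04), on 302, 111, 342 and 182 CPM in Calb1-gated cells against 30.1, 20.5, 27.3 and 32.8 CPM in Slc12a3-gated cells. The groups did not overlap. Ehf passed the filter on low counts through the Calb1-gated class alone. Only a higher level of Ehf could thus be called, and its lack of overlap follows from the filter. Of the 22 tested against Aqp2-gated cells, 3 (13.6%) were called, against 4.68% of all genes tested. Esrrg, an orphan nuclear receptor, was 3.07-fold higher (adjusted p = 0.00635; 0.112 without mouse 4), and Gata3, a factor of the collecting duct lineage, was 1.95-fold lower (adjusted p = 0.0336; 0.0545 without mouse 3 and 0.253 without mouse 4). Foxi1, the master factor of intercalated cells, was called higher in both comparisons, but 96.6% of its UMIs came from the 41 cells with other-type markers. Foxi1 is itself one of the markers by which those cells were set apart, so that share follows from their choice; without them it stood at 10.8, 46.8, 0 and 11.3 CPM in mice 1 to 4.

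Of 13 injury-associated tubule genes tested against Slc12a3-gated cells, edgeR called 0, although 3 had an unadjusted p under 0.05 and DESeq2 called 2. Lcn2, which encodes the injury marker NGAL, stood at 182, 284, 4398 and 1839 CPM in the Calb1-gated cells of mice 1 to 4, against 485, 815, 2405 and 1651 CPM in Slc12a3-gated cells (log2 fold change -0.59 ± 0.44, adjusted p = 0.484). In mouse 3 the highest counts in single Calb1-gated cells were 421, 278 and 163 Lcn2 UMIs. These cells held 12, 9 and 19 Aqp2 UMIs and no S100g or Klk1 UMI. The next highest, 153 and 141 Lcn2 UMIs, lay in cells with 18 and 40 S100g UMIs. The part of cells with Aqp2 but no S100g in the mouse 3 level was not tested. Spp1, which encodes osteopontin, stood at 11759, 15514, 27791 and 20815 CPM in Calb1-gated cells, against 19666, 6874, 14417 and 28942 CPM in Slc12a3-gated cells (0.07 ± 0.40, adjusted p = 0.956). Clu, which encodes the chaperone clusterin, was 0.52 ± 0.33 (adjusted p = 0.399). Lcn2 and Clu were higher in mice 3 and 4 than in mice 1 and 2 in both classes.

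Against Aqp2-gated cells the same list had 17 tested genes, of which 1 was higher and 5 were lower (35.3% called, against 4.68% of all genes tested), with a median log2 fold change of -0.63. Lcn2 stood at 182, 4398 and 1839 CPM in the Calb1-gated cells of mice 1, 3 and 4, against 4760, 13173 and 15256 CPM in Aqp2-gated cells, 8.29-fold lower (adjusted p = 0.0132; 0.216 without mouse 4). It was detected in 86 of 156 Calb1-gated cells, between 31.3% and 89.2% by mouse, against 91.5% to 100% of Aqp2-gated cells. Leukocytes, which also express Lcn2, held it in 18.9% to 84.3%, so free transcripts and expression cannot be told apart at low levels. Cd24a, a surface glycoprotein, was 2.45-fold lower (adjusted p = 0.0163), Timp2, a metalloproteinase inhibitor, 3.90-fold (0.00620), and Anxa2, an annexin, 2.79-fold (0.0177). Cdkn1a, the cell cycle inhibitor p21, was 2.55-fold higher (adjusted p = 0.0177), with 61.9% of its UMIs from cells with other-type markers. Each of these 5 calls was lost without mouse 4. Spp1 (0.22 ± 0.31, adjusted p = 0.732) and Clu (0.63 ± 0.30, adjusted p = 0.272) did not pass.

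Interferon-response, inflammatory and immediate early genes that were called were all lower in Calb1-gated than in Aqp2-gated cells. Isg15 stood at 43.1, 978 and 27.4 CPM in Calb1-gated cells of mice 1, 3 and 4, against 138, 1880 and 134 CPM in Aqp2-gated cells (2.79-fold lower, adjusted p = 0.0249), and Ifit1 was 2.82-fold lower (adjusted p = 0.0380). Both are interferon-stimulated genes and both were far higher in mouse 3 than in the other mice, in both classes. These 2 were the only ones called of 14 tested (14.3%, against 4.68% of all genes tested). Of 10 inflammatory mediators, the chemokine Cxcl16 (2.25-fold lower, adjusted p = 0.0190) and the macrophage growth factor Csf1 (3.77-fold, 0.0128) were lower. Of 15 immediate early genes, Ier3 (2.56-fold, adjusted p = 0.0117) and Zfp36 (2.06-fold, 0.0222) were lower. These were 20% and 13.3% of the genes tested in their lists, against 4.68% of all genes tested. All 6 calls were lost without mouse 4, and that of Csf1 also without mouse 3 (adjusted p = 0.0852).

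Against Slc12a3-gated cells, Klf4 (3.57-fold, adjusted p = 0.00938) of 14 immediate early genes and Cxcl16 (3.36-fold, adjusted p = 0.0410) of 7 inflammatory mediators were higher. These were 7.14% and 14.3% of the genes tested in their lists, against 1.74% higher over all genes tested. The inflammatory list had a median log2 fold change of 1.53, with 5 of 7 genes at an unadjusted p under 0.05. Of 6 interferon and MHC class I genes tested, edgeR called 0, although 5 had an unadjusted p under 0.05 and DESeq2 called 2. Their median log2 fold change was 1.32, against 0.01 over all genes tested. The 41 cells with other-type markers gave 60.4% of the Klf4 UMIs and 43.5% of the Cxcl16 UMIs. Klf4 lost its call without mouse 4 (adjusted p = 0.0527), and Cxcl16 lost its call without any one of mice 1 to 4 (adjusted p between 0.0554 and 0.176). The tight junction genes Cldn3 (5.86-fold, adjusted p = 0.0109) and Cldn4 (5.65-fold, adjusted p = 0.0486) were higher, as 2 of 8 tested junction genes (25%, against 3.57% of all genes tested). Cldn3 lost its call without mouse 2 (0.0740) and Cldn4 without mouse 1, 2 or 3 (0.131, 0.176 and 0.141). Against Aqp2-gated cells, 2 of 9 junction genes (22.2%, against 2.29% lower over all genes tested) were lower: Cldn7 (2.27-fold, adjusted p = 0.0172) and the adhesion gene Epcam (2.84-fold, adjusted p = 0.0101), both lost without mouse 4. Of 14 mitochondrially encoded genes tested, 9 were higher than in Aqp2-gated cells, by 1.03 to 1.38 on the log2 scale, and none was lower. Over all genes tested in that comparison 2.4% were higher. Of 12 tested against Slc12a3-gated cells edgeR called 0, although 11 had an unadjusted p under 0.05 and DESeq2 called 4. Their median log2 fold change was -0.92. The median mitochondrial share per cell was 5.40%, 6.42%, 6.45% and 4.62% in the Calb1-gated cells of mice 1 to 4, against 17.1%, 3.96%, 14.5% and 10.6% in Slc12a3-gated cells and 4.14%, 3.20% and 1.66% in the Aqp2-gated cells of mice 1, 3 and 4. With cells limited to a mitochondrial share under 20%, 67 genes were called against Slc12a3-gated cells, in place of 125. Against Aqp2-gated cells 308 were called, in place of 338. That setting also left fewer cells, and beyond it the part of the mitochondrial share in the other differences was not tested. The lists for heat shock and nuclear-encoded oxidative phosphorylation genes gave no call in either comparison, of 9 and 15 tested against Slc12a3-gated cells and of 11 and 15 against Aqp2-gated cells, by edgeR or by DESeq2. At an unadjusted p under 0.05 edgeR found 2 heat shock and 0 oxidative phosphorylation genes against Slc12a3-gated cells, and 5 and 1 against Aqp2-gated cells. Glycolysis gave 0 of 10 against Slc12a3-gated cells (2 at an unadjusted p under 0.05 and 0 with DESeq2). Against Aqp2-gated cells it gave 1 of 11 (9.09%, against 4.68% of all genes tested). This was Ldha, lactate dehydrogenase (2.04-fold lower, adjusted p = 0.0309, and 0.363 without mouse 4). Of hormone and paracrine receptors, 0 of 7 were called against Slc12a3-gated cells (1 at an unadjusted p under 0.05 and 1 with DESeq2). Against Aqp2-gated cells 2 of 12 were called (16.7%, against 4.68% of all genes tested). These were Egfr (2.20-fold lower, adjusted p = 0.0399) and Ptgs1 (2.93-fold lower, 0.0141). Ptgs1, although on that list, encodes a prostaglandin synthase and not a receptor. Both calls were lost without mouse 4, and that of Egfr also without mouse 1 (0.0751) and with DESeq2 (0.0617).

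The largest increases over Slc12a3-gated cells, after Hsd11b2, were Gpc5, a glypican, and Tmem229a, a membrane protein. Gpc5 stood at 321, 86.5, 70.1 and 112 CPM in Calb1-gated cells, against 2.51, 0, 0 and 0 CPM in Slc12a3-gated cells, which held 1 UMI. The pooled ratio was 114 with a counting interval of 20.1 to 4517 (adjusted p = 1.615e-04). A single cell of mouse 1 held 51 of the 160 Gpc5 UMIs. Tmem229a had a pooled ratio of 89.5 (counting interval 15.8 to 3563; adjusted p = 6.891e-04), also against 1 UMI. Gpc5 and Tmem229a passed the filter on low counts through the Calb1-gated class alone, so only higher levels could be called. Only 1.25% and 5.56% of the UMIs of these 2 genes came from the 41 cells with other-type markers. Bmpr1b, a BMP receptor, was 43.1-fold higher (adjusted p = 1.597e-04), Frmpd4, a scaffold protein, 39.3-fold (adjusted p = 3.161e-04), Car2, a carbonic anhydrase abundant in intercalated cells, 40.6-fold (adjusted p = 2.919e-04), and Alcam, a cell adhesion molecule, 32.7-fold (adjusted p = 2.919e-04). The cells with other-type markers gave 28.5%, 11.1%, 49.3% and 79.3% of the UMIs of these 4 genes in Calb1-gated cells. Like Gpc5 and Tmem229a, these 4 genes passed the filter on low counts through the Calb1-gated class alone. Car2 was called lower than in Aqp2-gated cells (log2 fold change -1.18, adjusted p = 0.0139), so it was not particular to intercalated cells here.

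The 8 largest decreases against Slc12a3-gated cells were Egf, Abca13 (17.3-fold lower), Cwh43 (14.5-fold), Trpm6, Arnt2 (9.87-fold), Prkd1 (8.69-fold), Smim36 (7.97-fold) and Ppp1r1a (7.16-fold). Abca13 is a lipid transporter, Arnt2 a transcription factor, Prkd1 a kinase and Ppp1r1a a phosphatase inhibitor. Prkd1 lost its call without mouse 2 (adjusted p = 0.111) and Smim36 without mouse 4 (0.0704). A single cell of mouse 1 held 70.0% of the Prkd1 UMIs among Calb1-gated cells.

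The cells with markers of other types carried much of what was higher. Among genes higher than in Aqp2-gated cells, 90 of 173 had at least 50% of their UMIs in those 41 cells, against 9 of 165 lower genes and 858 of 7221 genes tested. Among genes higher than in Slc12a3-gated cells it was 18 of 61, against 14 of 64 lower genes and 344 of 3499 tested. Each of the 8 largest increases over Aqp2-gated cells had over 50% of its UMIs in those cells: Malrd1 60.9%, Atp6v1g3 94.3%, Adgrf5 94.9%, Srgap1 77.1%, Foxi1 96.6%, Guca2b 66.0%, Rgs5 99.7% and Syn2 98.1%. Atp6v1g3, Foxi1 and Rgs5, like C1qa and Myh11 below, are among the markers that set the 41 cells apart, so their shares follow from that choice; the other 5 of the 8 are not. Atp6v1g3, a proton pump subunit of intercalated cells, stood at 297, 667, 18.6 and 2150 CPM in the Calb1-gated cells of mice 1 to 4 and at 0, 46.8, 0 and 215 CPM without the 41 cells. C1qa, a macrophage gene (6.29-fold higher, adjusted p = 0.00491; higher in 2 of 3 mice, with no UMI in either class of mouse 3), had 98.3% of its UMIs there, and Myh11, a smooth muscle gene called higher than in Slc12a3-gated cells (adjusted p = 0.0449; lost without mouse 2, 0.233, and without mouse 4, 0.0721), had 100%.

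The marker lists were also summed by mouse. For the lists of other types, a fall without the 41 cells follows from their choice, since the same markers set them apart. Distal convoluted tubule and principal cell markers were not used for that choice. Intercalated markers summed to 196 to 2656 CPM over the Calb1-gated cells of the 4 mice and to 52.2 to 332 CPM without the 41 cells, against 68.1 to 229 CPM in Slc12a3-gated and 32.5 to 122 CPM in Aqp2-gated cells. Fibroblast and mural markers summed to 2.49 to 4549 CPM in Calb1-gated cells and to 0 to 21.4 CPM without the 41 cells, against 6.55 to 1506 CPM in Slc12a3-gated and 0 to 81.2 CPM in Aqp2-gated cells, the highest Slc12a3-gated value being that of mouse 3. Macrophage markers summed to 41.3 to 837 CPM in Calb1-gated cells, against 5.13 to 354 CPM in Slc12a3-gated, 27.6 to 159 CPM in Aqp2-gated and 1721 to 5367 CPM in Ptprc-positive cells. Distal convoluted tubule markers other than Slc12a3 summed to 277 to 501 CPM in Calb1-gated cells and to 327 to 539 CPM without the 41 cells. In Slc12a3-gated cells they summed to 550 to 2937 CPM. Pvalb, a marker of the early part of that segment, had no UMI in any Calb1-gated cell. Principal cell markers outside the rule summed to 457 to 1597 CPM in Calb1-gated cells, against 5.13 to 13.1 CPM in Slc12a3-gated and 1968 to 5638 CPM in Aqp2-gated cells. Without the 41 cells their sum was higher in each mouse, at 2198, 1637, 546 and 1946 CPM in mice 1 to 4. The remaining cells thus carried more principal cell signal than the whole class.

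**Figure D4:**
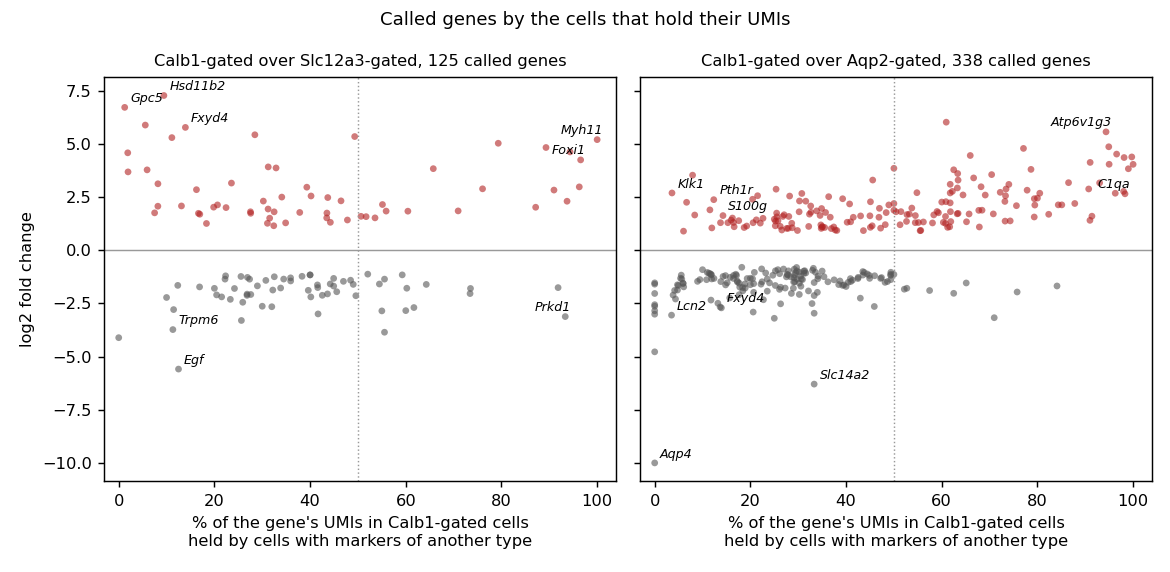
Each point is a gene called in the comparison with Slc12a3-gated cells (left, 125 genes) or Aqp2-gated cells (right, 338 genes), by the percent of its UMIs in Calb1-gated cells that lay in the 41 cells with markers of another type (x axis) and its log2 fold change, Calb1-gated over the other class (y axis). The dotted line marks 50%; Hsd11b2, Gpc5, Fxyd4, S100g, Klk1 and Pth1r lie left of it, and Foxi1, Atp6v1g3, Myh11 and C1qa lie near the right edge.

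Cells of the class with and without Trpv5 were compared last, as Trpv5 is known to decline along the connecting tubule. Trpv5 is a gene of the rule, so Trpv5-undetected cells had to enter by another partner gene, 34 of the 109 by Slc8a1 alone. Markers of another type were carried by 1 of the 47 Trpv5-detected cells and 40 of the 109 Trpv5-undetected cells, so the calls describe this split as well as any other difference. Trpv5 was detected in 3, 2, 21 and 21 members of mice 1 to 4 and not in 15, 14, 16 and 64. The test could use mice 3 and 4 only, with 1 residual degree of freedom between mice. Of 4370 genes tested, 43 (0.984%) were called, 4 higher (0.0915%) and 39 lower (0.892%) in Trpv5-detected cells. Without the term for mouse edgeR called 0 (43 genes had an unadjusted p under 0.05 in that fit, against 367 with the term), DESeq2 with the term called 15, and with the highest doublet scores left out edgeR called 3.

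The 4 higher genes were Kcnj16, a potassium channel subunit, Kitl, the ligand of the receptor Kit, Pgam2, a phosphoglycerate mutase, and Tspan1, a tetraspanin. Kcnj16 stood at 568 and 283 CPM in the Trpv5-detected cells of mice 3 and 4, against 111 and 121 CPM in the Trpv5-undetected cells (3.67-fold, adjusted p = 0.0296). Tspan1 stood at 227 and 1008 CPM in Trpv5-detected cells, against 66.6 and 267 CPM in Trpv5-undetected cells (3.73-fold, adjusted p = 0.00935). In mice 1 and 2, which the test did not use, Kcnj16 was 530 and 554 CPM in the 3 and 2 Trpv5-detected cells, against 117 and 117 CPM in the others. Kcnj16 was thus higher in all 4 mice. Tspan1 was 219 and 123 CPM in the Trpv5-detected cells of mice 1 and 2, against 32.5 and 27.5 CPM in the others. Kitl was 128 and 0 CPM in the Trpv5-detected cells of those mice, against 214 and 61.8 CPM in the others, the opposite direction to its call. None of the 4 calls held with DESeq2 (adjusted p between 0.0980 and 0.956).

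Of the 39 lower genes, 29 had at least 50% of their UMIs in the 41 cells with other-type markers, against 332 of 4370 tested. They included Foxi1, at 0 and 16.7 CPM in the Trpv5-detected cells of mice 3 and 4, against 283 and 181 CPM in Trpv5-undetected cells (adjusted p = 0.00162). Atp6v1g3 was 9.75-fold lower (adjusted p = 0.00405), and Adgrf5, an endothelial and intercalated-cell receptor, had 2 UMIs in Trpv5-detected cells, against 81 (pooled ratio 0.0268, counting interval 0.00320 to 0.100). Foxi1 and Adgrf5 passed the filter on low counts through the Trpv5-undetected cells alone. Rgs1, a leukocyte gene, Apoe, a macrophage gene, Ccn2, a matricellular gene, and Ifi27l2a, an interferon-stimulated gene, were also lower. S100a6 was called lower as well (adjusted p = 6.502e-04), but a single cell of mouse 4 held 84.5% of its UMIs. Of 8 inflammatory mediators tested, Cxcl10, Il34 and Nfkbia were lower (37.5%, against 0.892% lower over all genes tested). The 41 cells held 58.6%, 78.0% and 50.7% of the UMIs of these genes. Of 10 calcium and magnesium genes tested, edgeR called 0 (2 at an unadjusted p under 0.05, and 0 with DESeq2), with a median log2 fold change of 0.67, against -0.01 over all genes tested.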

How the data were processed

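The authors deposited UMI counts per gene and barcode, as raw counts in 1 matrix per mouse written by Cell Ranger 9.0.1 per the file headers. Seurat 4.1.1 is named in the submitters' processing notes with no role, and the genome build and annotation are not given in the sources used here. Libraries held 36831995 to 105436725 UMIs in 8790 to 17312 barcodes. Between pairs of libraries 0 to 54 barcodes were shared, none of them among Calb1-gated cells. The mice were independent biological replicates per the series' design text. The members and gene lists were chosen with earlier results of these data known.

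UMIs were summed per mouse and class, with at least 10 cells, and tested with edgeR 4.0.16 in R 4.3.3 (filterByExpr, TMM, quasi-likelihood, adjusted p under 0.05 after Benjamini-Hochberg). Mouse was a block because the classes compared came from the same animals. The 12 genes used in the rules stayed in library sizes and were not tested. A gene with few UMIs in 1 class could pass filterByExpr only through the other class, which set the direction of its call. This is stated above for some genes and can hold for others with large fold changes. SE is the log2 fold change divided by the root of F. The test was also run on simulated counts with 1 fixed dispersion for all genes. That check does not cover genes whose UMIs lie mostly in a single cell. Genes named beyond the lists were the 8 with the largest fold change each way among those called, in 1 direction in every mouse and at 20 CPM or more in the higher class, without mitochondrial and ribosomal protein genes; any others were named after their values were seen. DESeq2 1.42.0, other cell limits, no filter, no block, thinning to 1000 UMIs per cell and leaving out each mouse were alternatives. Scrublet, run in scanpy 1.11.5, called 0 to 109 doublets per library and under 0.5% of cells in 3 of 4 libraries. Whether few doublets were present or the caller missed them was not tested. It called 0 members, and no cell was removed. The setting with the highest doublet scores left out ranked cells by scores from these same runs. A listed gene that entered the counts is not reported by name here.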

Additional observations from a re-analysis of the deposited data

Results flagged for a closer look

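Among 110 groups of 4 mice examined, 18 levels in the Calb1-gated cells had 1 mouse far from the other 3 by Dixon's criterion. For independent, normally distributed values chance alone gives about 1 in 20. Low counts need not follow that rate, so the 18 are not an excess over chance. All are given in CPM except the share of ribosomal protein genes.

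In mouse 4, S100g reached 33007 CPM, with 5004 CPM in the next highest mouse, Fth1 (ferritin heavy chain) 5797 with 2711, Fxyd2 3079 with 1050 and S100a6 1430.0 with 111. The median share of ribosomal protein genes per cell was also highest there, at 6.54% with 1.82% in the next mouse.

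In mouse 3, the interferon-stimulated genes Isg15, Ifit1 and Cxcl10 reached 978, 408 and 2057 CPM, with 43.1, 30.9 and 381 CPM in the next highest mouse. Cldn7 reached 1496 with 376, Ldha 444 with 222, Trpm6 194 with 24.7 and Trpv5 188 with 69.8.

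In mouse 1, Vdr reached 206 CPM with 80.3 in the next mouse, Gpc5 321 with 112, Prkd1 120 with 12.4 and Cwh43 14.4 with 6.19. In mouse 2, Timp2 reached 49.4 with 24.9, and Aqp4 stood at 12.4, on 2 UMIs of 1 cell, with 0 in the other 3 mice.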

How the results depend on the processing

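Mouse pairs the classes, since each mouse gave all of them; without that replicate block 23 genes were called against Slc12a3-gated cells, 0 against Aqp2-gated cells and 0 between Trpv5-detected and Trpv5-undetected cells. With no filter on low counts the calls were 522, 811 and 141, and with cells thinned to 1000 UMIs 29, 23 and 4. Against Slc12a3-gated cells they were 199 with the highest doublet scores left out and 67 at a mitochondrial share under 20%. For Trpv5 they were 15 with DESeq2, 21 with RLE scaling, 21 at 2000 UMIs or more per cell, 3 with the highest doublet scores left out and 22 at the lower mitochondrial limit. Leaving out 1 mouse gave 58 to 148 calls against Slc12a3-gated cells and 17 to 641 against Aqp2-gated cells. The share of cells was 0.0830% after thinning and 0.240% to 0.415% with 1 mouse left out. Signs turned only for genes that were not called. Against Slc12a3-gated cells, the log2 fold change of Klk1 was 0.051 with no filter, 0.62 without the block, 0.92 at the stricter gate (2 or more Calb1 UMIs and 2 or more partner genes), 0.19 after thinning and -0.48 to 0.44 with 1 mouse left out. Lcn2 was 0.19 without the block and 0.68 at the stricter gate, and Scnn1a 0.028 at the stricter gate. Spp1 was -0.091 with the highest doublet scores left out, -0.11 without the block, -0.18 after thinning and -0.29 to 0.45 with 1 mouse left out, and S100g -0.064 to 0.39 with 1 mouse left out. Against Aqp2-gated cells Nr3c2 was -0.013 at the stricter gate and -0.13 to 0.60 with 1 mouse left out. The cause was not tested. The Trpv5 comparison could not be run at the stricter gate or with a mouse left out.

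Of the other values of single genes under these settings, 918 kept direction and side of the threshold, 226 lost the call and 8 gained it. Few cells and UMIs limit every level: mice 1 and 2 gave 18 and 16 members.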
